A study of Mus musculus with 35 samples.

Results

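Cd2, Cd4, Cd247, Lat, Cd3e, Tcf7, Lef1, Gata3, Bcl11b and Thy1 are 10 genes best known from T cells, and their chromatin was followed here in mouse pre-B cells by chromatin immunoprecipitation and sequencing (ChIP-seq). Every peak whose nearest gene in the deposited annotation was 1 of these 10 was taken. That rule found 920 of 1213505 peaks in 33 peak lists, 522 of them in the 17 IKDN lists and 398 in the 16 WT lists, and the lists name 23852 genes in all. IKDN cells were stromal-adherent pre-B progenitors from mice with the IKDN allele and CD2 Cre, and WT cells were the same kind of progenitor from WT mice. Both were cultured for 3 to 8 passages. IKDN stands for a dominant-negative form of Ikaros, a zinc finger protein that lymphocytes need for their development, which has lost its DNA-binding part and pairs with the intact protein. The targets mapped in both genotypes were 6 histone marks, RNA polymerase II phosphorylated on serine 5 (RNAPII S5), the Mediator subunit MED1 and 7 transcription factors. Ikaros itself was mapped in WT cells only, and LHX2 and LMO2 have an IKDN list and no WT list.

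For every target there was a single library per genotype, 1 from each. Differences between genotypes therefore had no replicate check, no test could be run, and the calls below are thresholds of size. The labels do not say whether animals were pooled or which part of the CD2 gene drives the Cre. Since that driver is named for Cd2, its part in the values at the Cd2 gene was not tested. The lists held 2802 to 86703 peaks. The files give no read counts, so the depth behind each peak is unknown. Of 18 B lineage genes, 15 had an H3K4me3 peak in IKDN and 16 in WT cells. For 11 stromal fibroblast genes the numbers were 4 in IKDN and 8 in WT cells.

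T and B lymphocytes arise from a common progenitor, and B lineage factors such as PAX5 hold T lineage genes down in B cell precursors. The T cell receptor sends its signal through the CD3 chains (Cd3e) and the zeta chain (Cd247), with Cd4 as coreceptor and Lat as the adaptor on which signalling proteins assemble. Tcf7 codes for TCF-1, Lef1 for its relative LEF-1, Gata3 for a zinc finger factor and Bcl11b for the factor that seals T cell commitment. H3K27ac marks active enhancers and promoters, H3K4me1 and H3K4me2 mark enhancers and the flanks of promoters, and H3K4me3 marks promoters. H3K36me3 marks transcribed gene bodies, and H3K27me3 is the mark of Polycomb repression.

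The length covered by a gene's peaks (the union of its peaks in a list) was the main measure. It was called longer or shorter in IKDN when the lengths differed by at least 1.5 times and by at least 1000 bp for histone marks and RNAPII S5, or 200 bp for MED1 and transcription factors. By this rule the 10 genes did not move as a group. For H3K27ac, Cd247 was called longer, and Cd2, Cd4, Lat and Tcf7 were called shorter. These were 1 and 4 of the 8 members with a peak, where 22% of all 15288 genes with a peak were called longer and 16.8% shorter. H3K27me3 went against H3K27ac at Cd247, which had no H3K27me3 peak in IKDN and 8 in WT cells, and at Cd2, which had 10 in IKDN and 1 in WT cells. Cd4 and Tcf7 were shorter for both marks.

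**Figure D1:**
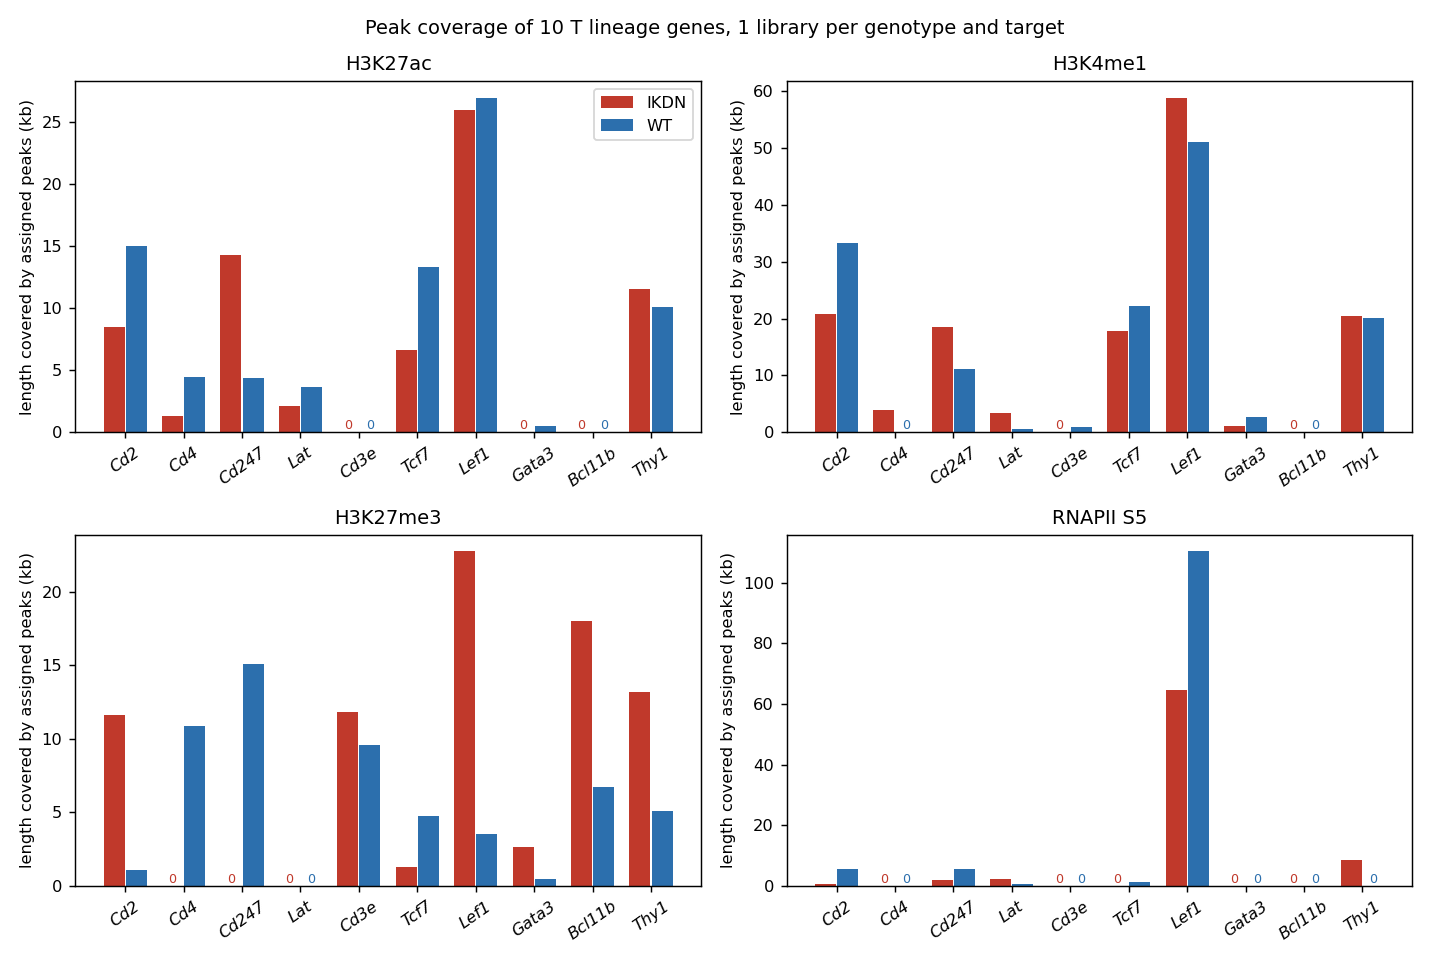
Length covered by assigned peaks (kb, vertical axes) at each of the 10 genes for H3K27ac, H3K4me1, H3K27me3 and RNAPII S5, with IKDN bars left of WT bars and 1 library per bar. Cd247 had 14.3 kb of H3K27ac in IKDN and 4.34 kb in WT cells, and no H3K27me3 in IKDN against 15.1 kb in WT cells.

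Cd247, the zeta chain of the T cell receptor complex, showed the largest H3K27ac gain of the 10 genes. The gene runs from 165779952 to 165871153 on chromosome 1 (mm10, plus strand). Its 8 H3K27ac peaks in IKDN cells covered 14.3 kb, and its 3 peaks in WT cells covered 4.34 kb. All 3 WT peaks overlapped an IKDN peak, and the other 5 IKDN peaks stood where WT cells had none. The widest of those spanned 5.20 kb around 24.5 kb downstream of the start site, inside an intron. H3K27me3 ran the other way, with no peak in IKDN cells and 8 peaks over 15.1 kb in WT cells, the widest of them 10.4 kb around 50.8 kb downstream.

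The enhancer mark H3K4me1 covered 18.6 kb of Cd247 in IKDN and 11.2 kb in WT cells, and H3K4me2 covered 13.9 kb and 7.58 kb, in that order. RNAPII S5 and E2A stood the other way. RNAPII S5 covered 1.95 kb in IKDN and 5.44 kb in WT cells, E2A had 3 peaks in IKDN and 6 in WT cells, and neither genotype had an H3K36me3 peak assigned to the gene. The RNAPII S5 call rests on 1 WT peak of 4.68 kb 72.4 kb downstream. By number there were 3 peaks in IKDN and 2 in WT cells, and within 50 kb of the start site there were 2 IKDN peaks of 0.501 kb and no WT peak. H3K4me3 covered 3.16 kb in IKDN and 3.04 kb in WT cells, a difference under the threshold. No target had a peak within 1 kb of the start site that the deposited annotation uses. RefSeq places the 5' end of Cd247 8.73 kb further upstream, and an H3K27ac peak of 2.10 kb in IKDN and 0.628 kb in WT cells lay there.

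Factor peaks of Cd247 gathered at a few places, which were joined into elements when they lay within 100 bp of each other. An intronic element 22.8 kb downstream, at chr1:165811279-165811599, held peaks of 7 factors in IKDN cells: E2A, ETS1, IRF4, LHX2, LMO2, PAX5 and TEAD1. In WT cells it held E2A and a low-ranked Ikaros peak, within the top 92.7% of that list by score. It carried H3K4me1 in both genotypes and H3K27ac in IKDN cells alone. The LMO2 peak there ranked in the top 1.03% of its list and the LHX2 peak in the top 4.95%. LMO2 is a bridging protein of blood progenitors and LHX2 is a LIM homeodomain factor. Neither has a WT list and Ikaros has no IKDN list, so here and at every element below their peaks could appear in 1 genotype alone. Likewise WT E2A could be scored only at Cd247, Tcf7 and Bcl11b. The labels give the IKDN LHX2 and IKDN ETS1 libraries the antibody number of the WT E2A library, and what this means for their peaks was not tested. The IKDN E2A, IRF4 and PAX5 labels also share an antibody number, so factors here and below are counted by label. The next element, 25.9 kb downstream, held 6 factors in IKDN and none in WT cells, and its TEAD1 peak ranked in the top 2.76%. Another, 64.6 kb downstream, held 6 factors in IKDN cells, and IRF4, Ikaros and PAX5 in WT cells. Scores were used only as ranks within a list, and ranks in lists of different lengths show no change.

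**Figure D2:**
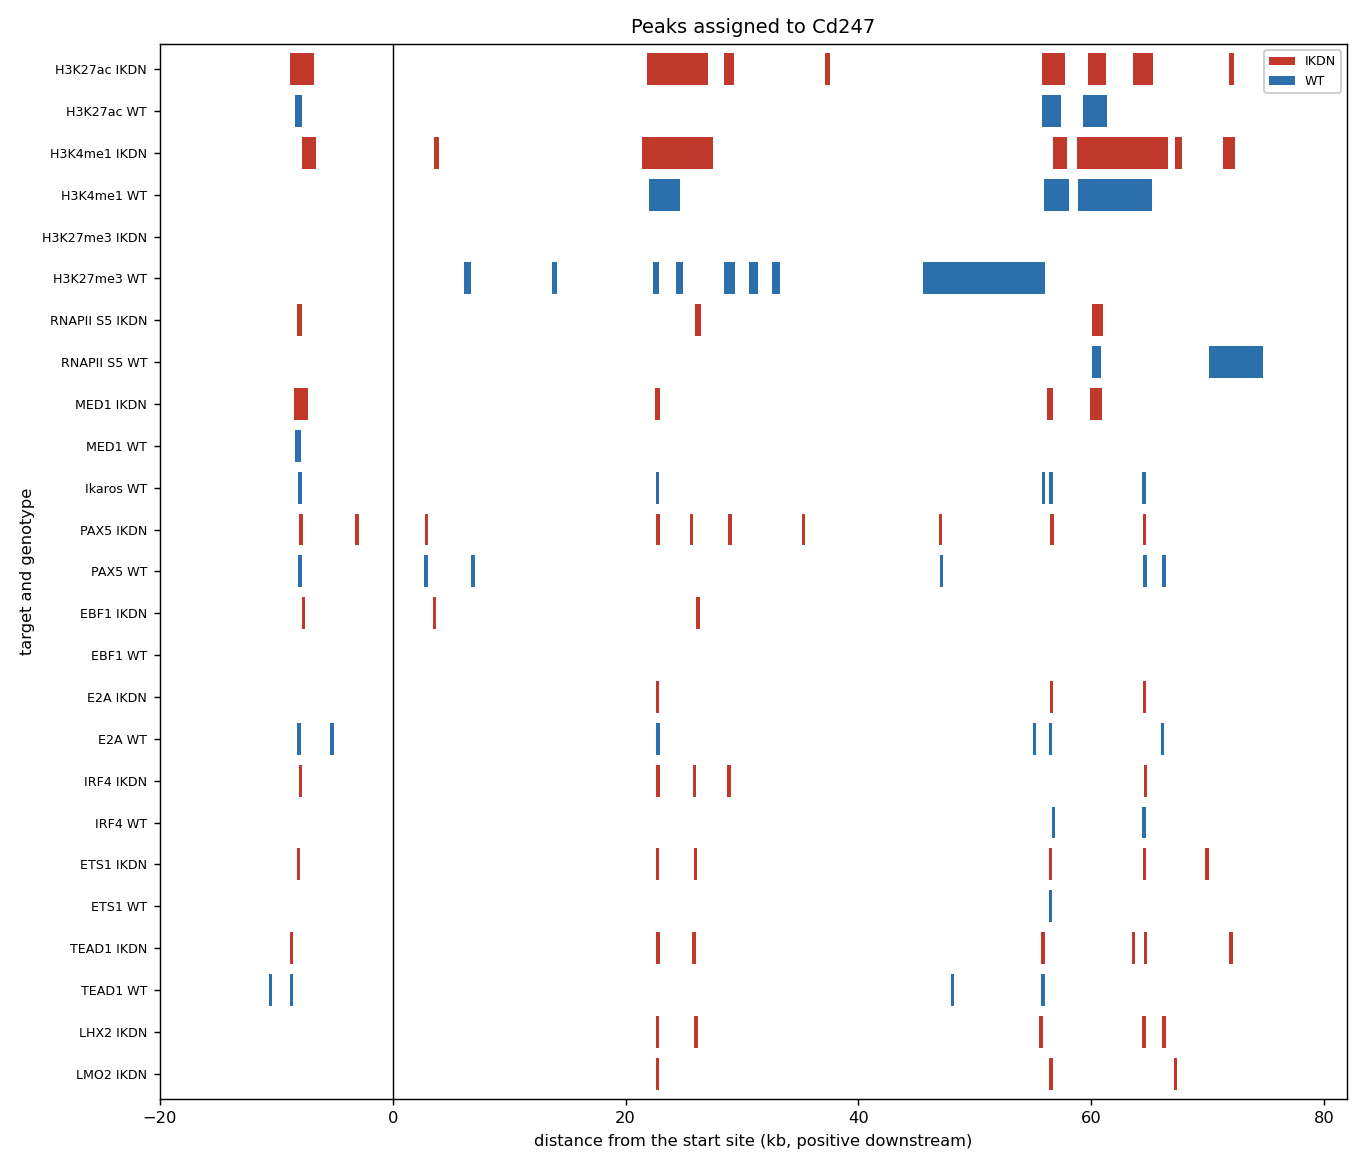
Peaks assigned to Cd247 by distance from the deposited start site (kb, horizontal axis), 1 row per target and genotype, with IKDN in red above WT in blue and narrow factor peaks widened to be visible. H3K27ac, LHX2, LMO2 and TEAD1 peaks of IKDN cells meet 22.8 kb downstream, and the 8 H3K27me3 peaks are all from WT cells.

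Cd2, an adhesion molecule of T and natural killer cells, moved in the opposite direction. Its H3K27ac covered 8.533 kb in 5 IKDN peaks and 14.987 kb in 8 WT peaks. Of these, 3 IKDN peaks and 3 WT peaks overlapped one another. IKDN cells had no H3K27ac peak within 1 kb of the start site (position 101287939 of chromosome 3, minus strand), where a peak of 6.19 kb lay in WT cells. They also lacked the WT peaks 13.0 and 17.1 kb downstream. H3K4me1 had no peak within 1 kb of the start site in IKDN cells and spanned 12.0 kb there in WT cells, in the top 1.60% of that list.

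H3K27me3 stood at the Cd2 start site in IKDN cells, with a peak of 1.89 kb. All assigned peaks, up to 88.8 kb away, covered 11.6 kb in IKDN and 1.08 kb in WT cells, and over the gene body with 10 kb on each side it was 4.65 kb in IKDN and 0 in WT cells. RNAPII S5 covered 0.628 kb in 1 IKDN peak and 5.47 kb in 5 WT peaks. Of the 5 IKDN acetylation peaks, 4 lay 12.7 to 21.7 kb upstream, and 2 of these, 19.3 and 21.7 kb upstream, had no WT counterpart. At 21.8 kb upstream an element held E2A, EBF1, IRF4, LHX2 and LMO2 in IKDN cells, and EBF1 and Ikaros in WT cells.

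WT Ikaros peaks were frequent around Cd2, with 11 of the 46 that the 10 genes had in all. The best of them, 16.97 kb downstream, ranked in the top 2.67% of 42655 Ikaros peaks. The element there held IRF4 and PAX5 in IKDN cells, and ETS1, IRF4 and PAX5 beside Ikaros in WT cells. Of the 11 Cd2 elements with an Ikaros peak, 1 had H3K27ac in IKDN and not in WT cells, 5 had it in WT and not in IKDN cells, 2 had it in both and 3 in neither. That split was not computed over all genes. PAX5 had 5 peaks at Cd2 in IKDN and 8 in WT cells, which made Cd2 the one member called shorter for PAX5.

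**Figure D3:**
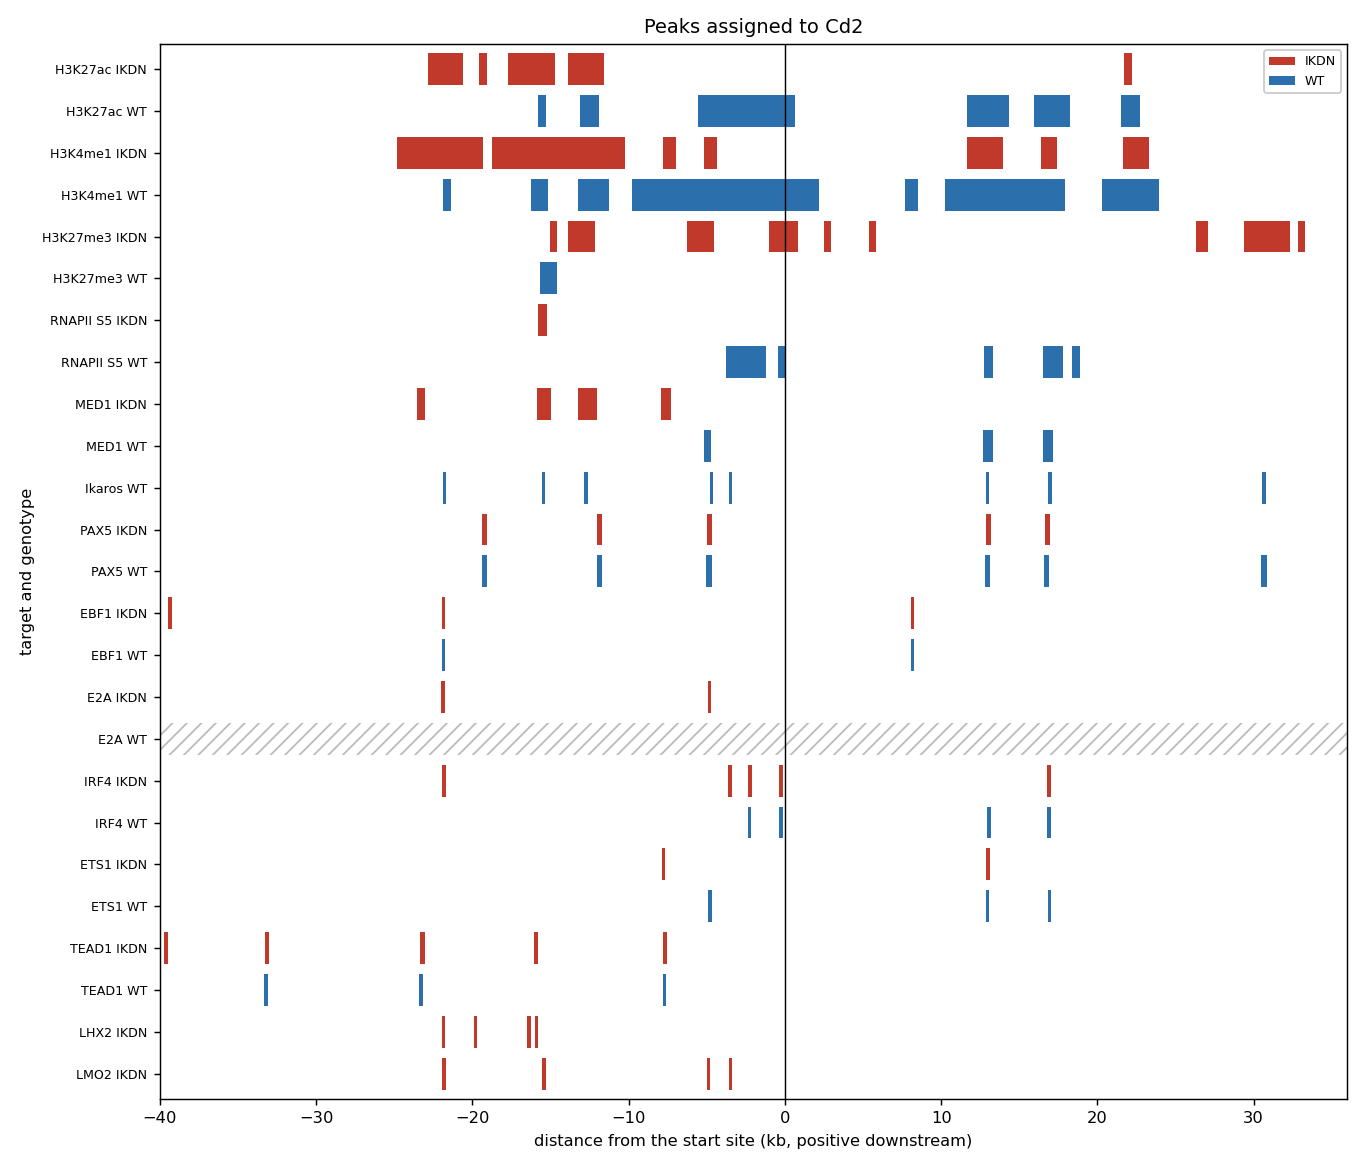
Peaks assigned to Cd2 by distance from its start site (kb, horizontal axis), 1 row per target and genotype, with IKDN in red above WT in blue; hatching marks the WT E2A list, which lacks this chromosome, and farther peaks lie outside the plotted range. An H3K27me3 peak of 1.89 kb lies over the start site in IKDN cells, and H3K27ac and RNAPII S5 lie there in WT cells.

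Cd4, the coreceptor for class II molecules, had no peak of any target within 1 kb of its start site in IKDN cells. WT cells had 1, an H3K27me3 domain of 10.3 kb that ranked in the top 3.91% of its list. For H3K27ac the gene was called shorter, with 1.33 kb in IKDN and 4.44 kb in WT cells. That call rests on 1 WT peak about 11.6 kb upstream, where IKDN cells had 2 smaller peaks, 1 of them named for the neighbour Lag3. Over the gene body with 10 kb on each side the direction turned, to 4.93 kb in IKDN and 2.38 kb in WT cells, with peaks named for the neighbours Gpr162 and Leprel2 included. An intronic element 3.02 kb downstream of the start site, at chr6:124884964-124885415, held EBF1, ETS1, LHX2, LMO2, PAX5 and TEAD1 in IKDN cells. No factor had a peak in that element in WT cells. H3K27ac and H3K4me1 lay over it in IKDN cells alone.

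Lat, the adaptor downstream of the T cell receptor, carried active marks in both genotypes. Its H3K27ac peak spanned 2.12 kb in IKDN and 3.62 kb in WT cells. H3K36me3 covered 6.25 kb in IKDN and 6.33 kb in WT cells, each in 1 assigned peak that lay wholly upstream of the gene. The peak centres stood 3.41 kb upstream of the start site in IKDN and 3.51 kb in WT cells. Over the gene body with 10 kb on each side H3K36me3 was 11.8 kb in IKDN and 13.4 kb in WT cells. Peaks named for the neighbour Mir7058 are included there. RNAPII S5 covered 2.37 kb in 3 IKDN peaks and 0.794 kb in 1 WT peak. By the gene name, H3K4me1 was longer in IKDN, with 3.34 kb against 0.501 kb in WT cells. The WT peak over the start site, 4.33 kb wide, was named for the neighbour Mir7058, and over the gene body with 10 kb on each side the order turned to 6.10 kb in IKDN and 12.3 kb in WT cells.

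In IKDN cells more factors had a peak within 1 kb of the Lat start site than at any other of the 10 genes. In WT cells Tcf7 had more than Lat, namely E2A, EBF1, IRF4, Ikaros and PAX5. Peaks of E2A, ETS1, IRF4, LHX2, LMO2, PAX5 and TEAD1 lay on the Lat start site in IKDN cells, and ETS1, Ikaros and PAX5 in WT cells. The E2A peak ranked in the top 2.35% of its IKDN list. PAX5 ranked in the top 2.51% in IKDN and 2.92% in WT cells. E2A could not be compared between genotypes here, since the WT E2A list leaves out chromosomes 3 to 9, X and a part of 2.

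Promoter sequences were available for 7 of the 10 genes in 11 windows of 250 bases before a RefSeq start site (GRCm38.p6). Those of Lat and Tcf7, which a WT Ikaros peak overlaps (for Tcf7, the one of its 2 windows that does), are shown beside that of Cd3e, which none does. Capitals mark the Ikaros core GGGAA or its reverse TTCCC. The windows are chr7:126369569-126369818, chr11:52282596-52282845 and chr9:45009612-45009861, all on the minus strand.
Lat: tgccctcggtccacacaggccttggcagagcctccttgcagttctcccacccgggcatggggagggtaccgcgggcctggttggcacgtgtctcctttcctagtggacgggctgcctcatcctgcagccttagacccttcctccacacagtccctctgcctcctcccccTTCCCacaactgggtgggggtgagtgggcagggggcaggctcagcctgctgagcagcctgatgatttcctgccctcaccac
Tcf7: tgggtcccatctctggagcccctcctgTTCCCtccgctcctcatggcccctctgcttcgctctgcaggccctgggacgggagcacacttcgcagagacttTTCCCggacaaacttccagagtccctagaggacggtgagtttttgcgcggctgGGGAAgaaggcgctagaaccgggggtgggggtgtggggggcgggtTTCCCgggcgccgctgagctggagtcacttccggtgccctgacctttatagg
Cd3e: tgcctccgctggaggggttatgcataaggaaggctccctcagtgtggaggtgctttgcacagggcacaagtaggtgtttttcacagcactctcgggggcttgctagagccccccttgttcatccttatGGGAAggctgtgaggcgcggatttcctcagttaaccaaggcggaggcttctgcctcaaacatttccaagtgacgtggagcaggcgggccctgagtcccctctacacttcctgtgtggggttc
The core occurs 4 times in the Tcf7 window, and 3 of these lie inside the WT Ikaros peak at chr11:52282620-52282796. It occurs 1 time in the Lat window, 81 bases before the start site and just outside the Ikaros peak at chr7:126369466-126369642. Cd3e also has 1 core and had no Ikaros peak there. On both strands, 56.2% of 32851 promoter windows hold the core, and 4 of these 11 did.

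Cd3e, the epsilon chain of the CD3 complex, was marked by H3K27me3 in both genotypes. The mark covered 11.8 kb in 5 IKDN peaks and 9.56 kb in 11 WT peaks, a difference under the threshold. At the start site the IKDN peak spanned 3.28 kb and reached over 2 WT peaks, of 0.707 and 0.653 kb. No H3K27ac, H3K4me3, RNAPII S5 or H3K36me3 peak was assigned to the gene in either genotype. Just past its 3' end, 11.2 kb downstream of the start, an element held ETS1 and LMO2 in IKDN cells, and ETS1, Ikaros and PAX5 in WT cells. PAX5 could not be scored there in IKDN cells, whose list lacks part of chromosome 9. IKDN cells had an H3K27me3 peak of 0.501 kb there and no H3K4me1 or H3K4me2 peak, and WT cells had H3K4me1 of 1.01 kb and H3K4me2 of 1.12 kb.

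Thy1, a surface glycoprotein of mouse T cells that fibroblasts also carry, differed at its start site (position 44043384 of chromosome 9, plus strand). H3K27ac there spanned 5.49 kb in 1 IKDN peak, which reached over 2 WT peaks, of 0.807 kb at the start site and 3.58 kb behind it. H3K27me3 had no peak there in IKDN cells and spanned 4.07 kb in WT cells. RNAPII S5 covered 8.57 kb of Thy1 in IKDN cells and nothing in WT cells, and H3K36me3 covered 3.30 kb in IKDN cells and nothing in WT cells. Summed over the gene, H3K27ac was close in length, at 11.6 kb in IKDN and 10.1 kb in WT cells. By sum H3K27me3 was called longer in IKDN, 13.2 kb against 5.08 kb in WT cells, but all 15 IKDN peaks lay 44.5 to 144 kb upstream. Over the gene body with 10 kb on each side it was 0 in IKDN and 4.07 kb in WT cells.

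Factor peaks at Thy1 were more numerous in IKDN cells for ETS1 (5 and none in WT), IRF4 (5 and 1 in WT) and EBF1 (6 and 4 in WT). The element 13.4 kb upstream held E2A, ETS1, LHX2, LMO2 and TEAD1 in IKDN and no factor in WT cells, though of these only ETS1 and TEAD1 could be scored in WT cells. H3K27ac lay over it in both. Thy1 also stands on the list of 11 stromal fibroblast genes. Over the other 10 of them H3K4me3 summed to 2.56 kb at 3 genes in IKDN and 25.7 kb at 7 genes in WT cells, with at most 1.002 kb per gene in IKDN and 5.70 kb in WT cells. Col1a1, Mmp2 and Twist1 had a peak in both genotypes, Col1a2, Pdgfra, Pdgfrb and Prrx1 in WT cells alone, and Col3a1, Dcn and Lum in neither. The part of stromal cells in the Thy1 values was not tested.

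Among the transcription factor genes, Lef1 was active in both genotypes. Its promoter peaks stood near the top of their lists. H3K27ac spanned 9.67 kb in IKDN, in the top 0.389% of its list, and 9.65 kb in WT cells, in the top 0.240%. H3K4me3 over the start site spanned 8.76 kb in IKDN and 12.4 kb in WT cells. H3K36me3 covered 95.8 kb in IKDN and 66.4 kb in WT cells, 1.44 times as much and so under the threshold. Over the gene body with 10 kb on each side it was 112 kb in IKDN and 109 kb in WT cells. Peaks named for the neighbour Hadh are included there in both genotypes. RNAPII S5 was called shorter, with 64.6 kb in 18 IKDN peaks and 110 kb in 3 WT peaks, of which 1 spanned 104 kb. By number RNAPII S5 would be called higher. A distal domain about 181 kb upstream carried the H3K27me3 difference: 1 IKDN peak of 15.6 kb stood where WT cells had peaks of 1.67 and 1.35 kb. H3K27me3 was absent from the Lef1 gene body and 10 kb around it in both genotypes.

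Lef1 had more factor peaks than any other member, 46 elements in all. The element 55.8 kb upstream, at chr3:131054172-131054921, held 8 factors in IKDN cells, namely E2A, EBF1, ETS1, IRF4, LHX2, LMO2, PAX5 and TEAD1. In WT cells it held Aiolos, EBF1, IRF4, Ikaros, PAX5 and TEAD1. Its TEAD1 peak ranked in the top 0.691% in IKDN cells, and its Ikaros peak in the top 1.13% in WT cells. TEAD1, a DNA-binding partner of the YAP coactivator, had 20 peaks at Lef1 in IKDN and 7 in WT cells. ETS1 had 13 in IKDN and 4 in WT cells.

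At Tcf7 the acetylation differed far from the promoter. H3K27ac covered 6.64 kb in IKDN and 13.3 kb in WT cells, the largest loss among the 10 genes. The WT peaks of 4.46 kb at 26.97 kb upstream and 2.20 kb at 36.5 kb upstream had no IKDN counterpart. The other 4 WT peaks did. Those 2 regions held 3 of the 9 Ikaros elements of Tcf7, and in IKDN cells the one factor with peaks in them was PAX5, at 35.6 and 36.2 kb upstream. Within the gene body and 10 kb around it, H3K27ac was 6.89 kb in IKDN and 6.65 kb in WT cells.

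At the Tcf7 start sites H3K27me3 spanned 1.28 kb in IKDN and 4.29 kb in WT cells, and H3K27ac spanned 1.05 kb in IKDN and 0.501 kb in WT cells. An EBF1 peak lay there in both, in the top 1.27% of the IKDN and 4.56% of the WT list. H3K36me3 assigned to Tcf7 covered 3.06 kb in IKDN cells and nothing in WT cells. E2A, an early B and T lineage factor, had 2 peaks at Tcf7 in IKDN and 6 in WT cells. An element 9.61 kb upstream held 7 factors in IKDN cells, among them LHX2, LMO2 and TEAD1, and E2A, Ikaros and PAX5 in WT cells, with H3K27ac in both.

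Gata3 and Bcl11b lay under H3K27me3 in both genotypes. A domain of 34.7 kb in IKDN and 30.9 kb in WT cells lay over the Gata3 start site. The annotation names it for the neighbour 4930412O13Rik, so the assigned H3K27me3 of Gata3 (2.66 kb in IKDN and 0.501 kb in WT cells) leaves it out. H3K4me3 was also present at that start site, with 1.37 kb in IKDN and 3.15 kb in WT cells. At Bcl11b the domain over the start site spanned 11.4 kb in IKDN and 5.75 kb in WT cells, and the assigned total was 18.0 kb in IKDN and 6.75 kb in WT cells. Bcl11b had no H3K27ac, H3K4me1, H3K4me2, H3K4me3 or RNAPII S5 peak in either genotype. Its factor peaks were mostly PAX5, 8 in IKDN and 5 in WT cells, and no Ikaros peak was assigned to it.

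**Figure D4:**
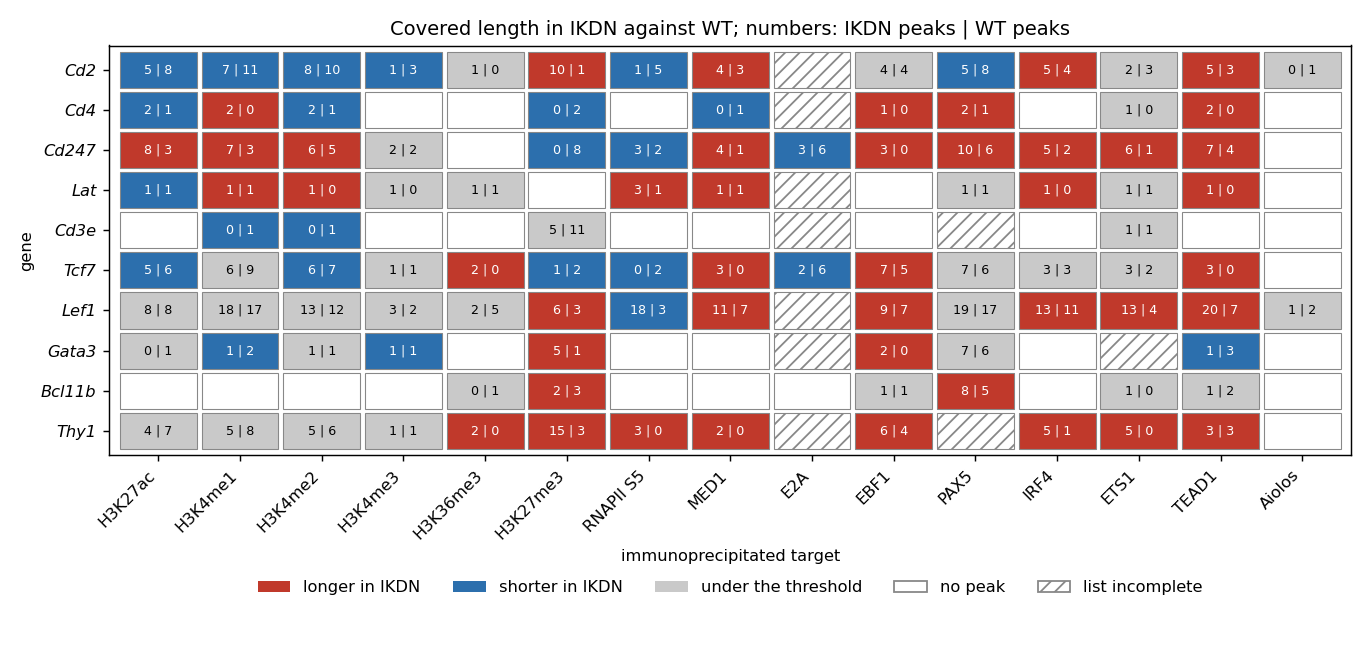
Calls by covered length for the 10 genes (rows) and the 15 targets mapped in both genotypes (columns): red is longer in IKDN, blue shorter in IKDN, grey under the threshold, white no peak, hatched a chromosome missing from 1 list. Each cell gives the number of IKDN peaks and then WT peaks; Cd247 is red for 9 targets and blue for 3.

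Across the marks the calls differed between genes. H3K4me1 was called longer at Cd4, Cd247 and Lat and shorter at Cd2, Cd3e and Gata3, with 21.6% of all genes longer and 20.1% shorter. The Cd4 call depends on the name, since no WT peak was named for Cd4. Over its gene body with 10 kb on each side H3K4me1 was 8.46 kb in IKDN and 5.66 kb in WT cells, under the threshold. All of that WT length lay in peaks named for Gpr162, Lag3 and P3h3. H3K4me2 was longer at Cd247 and Lat and shorter at Cd2, Cd4, Cd3e and Tcf7, against 15% and 12.9% of all genes in the same order. At Lat that call rests on the name: the WT peak over the start site, 4.06 kb against 2.51 kb in IKDN, was named for Mir7058. Over the gene body with 10 kb on each side Lat had 6.02 kb in IKDN and 12.3 kb in WT cells. H3K4me3 was longer at no member, against 5.12% of all genes, and shorter at Cd2 and Gata3, against 10.8%. H3K36me3 was longer at Tcf7 and Thy1 (30.4% of all genes) and shorter at none (10.1%). H3K27me3 was longer at Cd2, Lef1, Gata3, Bcl11b and Thy1 (29.6% of all genes) and shorter at Cd4, Cd247 and Tcf7 (33.3%). RNAPII S5 was longer at Lat and Thy1 (27.2%) and shorter at Cd2, Cd247, Tcf7 and Lef1 (24.8%). These percentages are shares of the genes with a peak in either list, set beside counts over 6 to 9 members per mark with no test.

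The H3K27me3 and RNAPII S5 balances depended on which peaks were given to a gene. Over gene bodies with 10 kb on each side, H3K27me3 was longer at 2 members and shorter at 4, and RNAPII S5 longer at 3 and shorter at 2. Counted by number of peaks (at least 2 more and 1.5 times), RNAPII S5 was higher at Lat, Lef1 and Thy1 (20.4% of all genes) and lower at Cd2 and Tcf7 (15.2%).

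For most factors the members leaned towards IKDN, and so did the background. MED1 was called longer at Cd2, Cd247, Lat, Tcf7, Lef1 and Thy1 and shorter at Cd4, with 75.3% of all genes longer and 9.36% shorter. EBF1 was longer at 6 members (44.2% of all genes) and shorter at none (3.25%), IRF4 at 5 (55.1%) and none (2.08%), and TEAD1 at 7 (61.5%) and 1 (5.55%). MED1 peaks vary in width. Within a list of the other factors peaks have nearly 1 width, and for 3 of them it differs clearly between genotypes. It was 277 bp in IKDN and 177 bp in WT cells for TEAD1, 243 and 191 bp for EBF1 and 231 and 169 bp for IRF4, in that order. Counting peaks removes this difference of width but not that of list length. The MED1 lists held 24239 peaks in IKDN and 12105 in WT cells. With equal peak numbers MED1 was longer at 3 members and shorter at 1. Over gene bodies with 10 kb on each side MED1 was still called longer at Cd247, Lat, Tcf7 and Thy1. There it turned to shorter at Cd2, with 0.646 kb in IKDN and 1.78 kb in WT cells. At Cd4 it turned to longer, with 1.49 kb in IKDN and 0 in WT cells, all in peaks named for the neighbour Leprel2. By number, MED1 was higher at Cd247, Tcf7, Lef1 and Thy1 (21.8% of all genes) and lower at none (2.25%). EBF1 was higher at Cd247, Gata3 and Thy1 (15.8%) and lower at none (3.82%), IRF4 at Cd247 and Thy1 (21.4%) and none (2.81%), and TEAD1 at Cd2, Cd4, Cd247, Tcf7 and Lef1 (24.3%) and lower at Gata3 (7.87%), where TEAD1 had 1 peak in IKDN and 3 in WT cells.

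Among the factors with near-equal widths, ETS1 was called longer at Cd247, Lef1 and Thy1 (18.2% of all genes) and shorter at none of 9 members (3.03%), and higher by number at the same 3 (18.6%) and lower at none (3.03%). The ETS1 antibody number in the labels differs between genotypes. PAX5 was longer at Cd4, Cd247 and Bcl11b (22.4%) and shorter at Cd2 (11.7%), and by number higher at Cd247 and Bcl11b (15%) and lower at Cd2 (3.82%). With both PAX5 lists reduced to equal peak numbers by score it was longer at Cd4 alone and shorter at Cd2 and Bcl11b. E2A could be compared at Cd247, Tcf7 and Bcl11b alone. It was shorter at Cd247 and Tcf7 (24.1% of all genes) and longer at none (5.1%), and its antibody number also differs between genotypes. The IKDN E2A label carries the number of the IRF4 and PAX5 labels, and 12 of 18 IKDN E2A peaks of the members on chromosomes complete in the PAX5 list overlapped an IKDN PAX5 peak, as did 63.7% of all IKDN E2A peaks. Aiolos, the closest relative of Ikaros, had 1 member peak in IKDN and 3 in WT cells, and no member was called longer (5.02%) or shorter (9.02%).

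**Figure D5:**
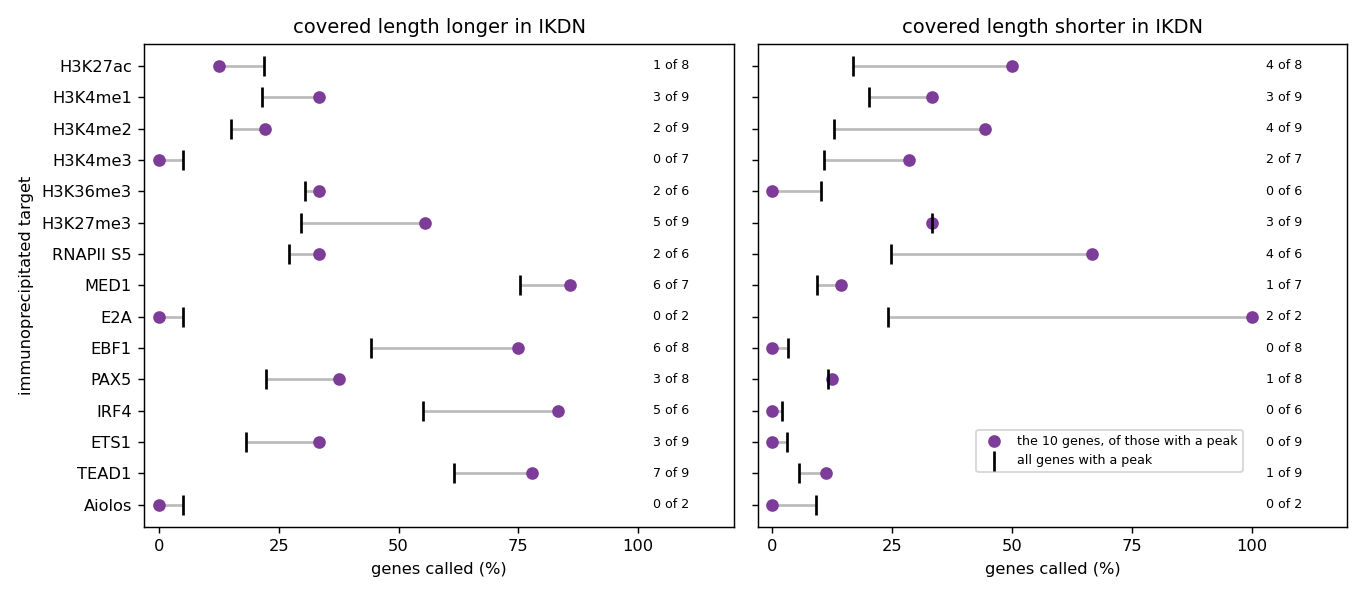
Share of genes called (%, horizontal axis) for each target: circles are the 10 genes, as a share of those with a peak, and ticks are all genes with a peak, with longer in IKDN in the left panel and shorter in IKDN in the right. H3K27ac stands at 4 of 8 members shorter, against 16.8% of all genes; the 2 E2A members are all that could be compared.

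The positions of H3K27ac were shared between genotypes at the members about as often as elsewhere. Of 33 IKDN member peaks, 20 overlapped a WT peak (60.6%, exact Clopper-Pearson 95% interval 42.1 to 77.1%), and 59.5% of all IKDN peaks did. Of 35 WT member peaks, 21 overlapped an IKDN peak (60.0%, 42.1 to 76.1%), and 67.9% of all WT peaks did. For H3K27me3, 10 of 44 IKDN member peaks (22.7%, 11.5 to 37.8%) overlapped a WT peak, and 40.8% of all IKDN peaks did. In the other direction it was 16 of 34 WT member peaks (47.1%, 29.8 to 64.9%), and 44.3% of all. These intervals cover counting error only, and peaks of 1 gene are not independent.

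Together the 10 genes had 169 factor elements, of which 83 held factors in both genotypes, 57 in IKDN cells alone and 29 in WT cells alone. Elements of LHX2 or LMO2 alone can only be IKDN elements, and those of Ikaros alone only WT elements. Counting the factors that both genotypes have on that chromosome leaves 149 elements, 74 with a factor in both genotypes, 51 in IKDN cells alone and 24 in WT cells alone. Unequal list lengths still enter these counts, and no share over all genes was computed. Most, 126, lay more than 10 kb from the start site, 109 were intergenic and 49 intronic. At least 5 factors met in IKDN cells at 17 elements, 8 of them at Lef1 and 3 at Cd247. LHX2, LMO2 and TEAD1 met at 7, of which 2 were at Lef1 and 1 each at Cd4, Cd247, Lat, Tcf7 and Thy1. Factors are counted by label in both tallies, without a share over all genes. Among the IKDN labels, E2A, IRF4 and PAX5 carry the same antibody number, and ETS1 and LHX2 share another. Of the 45 elements with a WT Ikaros peak, 5 had H3K27ac in IKDN and not in WT cells, 9 in WT and not in IKDN cells, 16 in both and 15 in neither. That split was not computed over all genes. H3K27ac overlapped 57.2% of all Ikaros peaks in IKDN and 62.6% in WT cells.

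The 46 Ikaros peaks of the members were set beside all 42621 Ikaros peaks as a description, since peaks of 1 gene are not independent. In IKDN cells LHX2 overlapped 32.6% of them and 23.3% of all, LMO2 32.6% and 20.2%, and TEAD1 19.6% and 30.6% in the same order. H3K27me3 overlapped 17.4% of them in IKDN cells, where it overlapped 4.35% of all Ikaros peaks, and 13.0% in WT cells, with 5.15% of all. H3K4me1 of WT cells overlapped 40 of the 46, or 87.0%, and 59.7% of all Ikaros peaks. The shares of PAX5 and of IRF4 in IKDN cells were close. PAX5 overlapped 50% in IKDN, against 50.1% of all on the chromosomes its list covers, and 50% in WT cells, against 50.5%. IRF4 of IKDN cells overlapped 34.8% against 35.7%. H3K27ac overlapped 47.8% in IKDN, against 57.2% of all, and 54.3% in WT cells, against 62.6%. E2A overlapped 30.4% in IKDN, against 18.4%. In WT cells E2A overlapped 57.1% of 14 peaks on the chromosomes its list covers, against 29.2%. TEAD1 of WT cells overlapped 4.35% against 15.6%. Not every target is listed here. RNAPII S5 overlapped 19.6% in IKDN, against 44.0% of all Ikaros peaks, and 26.1% in WT cells, against 46.1%.

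Of 31 further T lineage genes, 26 had an H3K27ac peak, and 3 were called longer in IKDN and 15 shorter. Of all genes with a peak, 22% were called longer and 16.8% shorter. The median difference of the 26 was -3110.5 bp (IKDN minus WT), and that of all genes was 119 bp. The 3 longer were Tox2, with 9.69 kb in IKDN and none in WT cells, Icos, with 5.94 kb and none, and Cd5, with 4.47 and 1.64 kb, in the same order. Tox2 is a nuclear factor of the TOX family, Icos an inducible costimulator and Cd5 a surface brake on receptor signalling. The largest losses were at Tespa1 (1.33 kb in IKDN and 11.9 kb in WT cells), Zbtb7b (0 and 8.88 kb) and Lck (2.08 and 9.79 kb). At Zbtb7b H3K4me1 was 0 in IKDN and 9.32 kb in WT cells, and H3K4me2 was 9.18 and 8.92 kb, in that order. Lengths at these further genes go by the gene name alone and were not computed over gene bodies. Tespa1 is a signalling protein of thymocytes, Zbtb7b the factor of CD4 T cell fate and Lck the kinase that starts receptor signalling. For H3K27me3, 6 of 25 were called longer and 12 shorter, where 29.6% of all genes were longer and 33.3% shorter. Of 18 B lineage genes set beside them, none of the 17 with an H3K27ac peak was longer and 8 were shorter. The shares of all genes for H3K27ac were again 22% and 16.8%.

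The pattern of covered length across lists was compared between genes for the members with the largest H3K27ac gain and loss, as Pearson's r of log2(covered bp + 100), a description only since lists share genotype, width and length. Nearest to Cd247 were Pemt (r = 0.963 over 33 lists), Rnf24 (0.948 over 31) and Cd3d (0.940 over 31). Cd3d codes for another chain of the CD3 complex. Nearest to Tcf7 were Fgl2 (0.891 over 32), Prdm1 (0.883 over 33) and Pomgnt2 (0.874 over 31).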

How the data were processed

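ChIP-seq peak lists of 17 IKDN and 16 WT libraries were used; the 2 input libraries had no list and were not used. Per the submitters' processing notes, bcl2fastq 1.8.3, BWA, STAR and HOMER were used, with the mm10 and mm9 builds named. Peak positions fit GRCm38 (mm10), since the start sites implied by the distances lie at the genes' places in that assembly. The deposited peak score has no stated scale and was used only as a rank within a list. The deposited distance to the start site, in bp, runs from the peak centre. Depth per library is unknown.

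Peaks were assigned by the deposited gene name. Covered length is the union of a gene's peaks (Python 3.11.15, pandas 2.3.3, numpy 2.4.6, scipy 1.17.1, matplotlib 3.10.9). A chromosome on which the last peak of a list lay over 10 Mb before the last of all lists was left out of that comparison: in WT E2A chromosomes 2 to 9 and X, in WT ETS1 chromosome 2, in IKDN PAX5 chromosomes 9 and X. The call rule was run on the WT H3K27ac list after peaks of chosen genes were lengthened or shortened by a set factor. That run checked how the rule was coded. It held no variation between libraries and is no test between genotypes. Named genes are the 10 members, the other T lineage genes with the 3 largest H3K27ac gains and losses among those called, and for Cd247 and Tcf7 the 3 genes of highest r; single elements were chosen after their values were seen. The sequence of Ikaros peaks, also in that rule, was not used here. Members, gene lists and thresholds were chosen with earlier results of these data known. The labels give E2A, ETS1 and H3K4me3 different antibody numbers in the 2 genotypes. The H3K4me3 number in IKDN is that of H3K4me1, yet 60.2% of IKDN and 57.4% of WT H3K4me3 peaks lay within 1 kb of a start site, with 15.8% and 17.5% for H3K4me1.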

Additional observations from a re-analysis of the deposited data

How the results depend on the processing

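No paired analysis was possible because each genotype and target had 1 library and the labels number no replicates; leaving out a replicate was not possible either. Net calls are members longer minus members shorter in IKDN. As deposited they were -3 for H3K27ac, 0 for H3K4me1, -2 for H3K4me2, H3K4me3, RNAPII S5 and E2A, 2 for H3K36me3, H3K27me3 and PAX5, 3 for ETS1, 5 for MED1 and IRF4, 6 for EBF1 and TEAD1 and 0 for Aiolos. Calling at 3 times the length gave 0 for H3K27ac, H3K4me2, H3K27me3, E2A and PAX5, 1 for H3K4me1, -1 for H3K4me3 and RNAPII S5, 2 for MED1 and 3 for EBF1 and IRF4. Calling by number gave -1 for H3K27ac, H3K4me1 and H3K4me3, 0 for H3K4me2, 1 for H3K36me3, H3K27me3 and PAX5, 3 for EBF1 and 2 for IRF4, and turned RNAPII S5 to 1. Equal peak numbers gave -1 for H3K4me3 and E2A, 2 for MED1 and IRF4, and turned PAX5 to -1. The top-scored 50% gave -1 for H3K27ac, H3K4me3 and Aiolos, 0 for H3K4me2 and 2 for EBF1. Gene bodies with 10 kb on each side gave 0 for H3K27ac, -3 for H3K4me1, -1 for E2A and 3 for EBF1, and turned H3K27me3 to -2 and RNAPII S5 to 1. There H3K27ac also turned at Cd4, to 2550 bp (IKDN minus WT), and at Tcf7, to 246 bp, from -3102 and -6654 bp. Peaks within 50 kb gave 1 for H3K4me1 and H3K36me3 and 0 for RNAPII S5, and turned H3K27me3 to -1. Peaks within 5 kb, a setting chosen after seeing the data, gave -1 for H3K27ac and H3K4me3, 0 for H3K36me3 and E2A, 1 for H3K27me3 and ETS1, 2 for MED1 and 3 for EBF1, IRF4 and TEAD1. It turned H3K4me2 to 1 and RNAPII S5 to 2, and H3K27ac at Cd4 to 652 bp and at Tcf7 to 1052 bp. Requiring 50% of both peaks lowered the shared H3K27ac member peaks to 39.4% of IKDN and 37.1% of WT peaks. The cause of these changes was not tested. For H3K27ac, Cd247 was also longer and Cd2 also shorter over gene bodies, with equal peak numbers, by number and within 50 kb. Cd2 was not called with the top-scored 50% (7.53 kb in IKDN and 11.1 kb in WT cells) or at 3 times the length, and Cd247 had no peak in either genotype within 5 kb. RNAPII S5 at Cd247 turned to longer within 50 kb. With unknown depth, a missing peak does not show that a mark is absent.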

Other observations

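Beyond T lineage genes, 18 B lineage genes had 248 kb of H3K27ac in IKDN and 417 kb in WT cells, at 14 and 17 genes in that order. On the list of 7 myeloid genes, H3K27ac summed to 22.2 kb at 5 genes in IKDN and 13.5 kb at 4 in WT cells, and H3K27me3 to 9.67 kb at 2 genes in IKDN and 22.4 kb at 5 in WT cells. The 11 stromal fibroblast genes had 171 kb of H3K27me3 in IKDN and 73.4 kb in WT cells. Among the T lineage genes beyond the 10, Tox2 had 18.7 kb of H3K27me3 in IKDN and 62.8 kb in WT cells, and Icos had 23.6 kb in IKDN and 11.1 kb in WT cells. Cd3g, Cd7, Cd8a, Cd8b1 and Ptcra had no H3K27ac peak in either genotype.

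In the 11 promoter windows, GGAAGT, the core of ETS sites, was in 5 of them, each of another gene, and in 19.7% of all windows on either strand. The E-box CAGGTG was in that of Cd247 alone (17.2% of all), and GGAATG of TEAD sites (12.6%) and TAATTA of homeodomain sites (4.84%) were in none. GGAAGT and the Ikaros core share letters in GGGAAGT. Of 22 IKDN E2A peaks of the members, 10 overlapped an IKDN IRF4 peak, and 48.9% of all IKDN E2A peaks did.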
